A study of Homo sapiens with 12 samples.

Results

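RPL22 and RPL22L1 are paralogous genes for a protein of the large ribosomal subunit, and both were followed through all 12 RNA-seq libraries of the study. They were chosen by gene symbol, 2 rows of the 60671 in the deposited table, because the difference in RPL22 between PTPN21 overexpressing and control cells turned round when vincristine was present. The PTPN21 differences of RPL22 therefore chose the gene and are given here as a description, without a test.

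The 4 groups had 3 libraries each. NC+DMSO and NC+VCR were control cells, which the labels give as genotype WT while the study's methods describe a GFP lentiviral vector with the SFFV promoter. PTPN21+DMSO and PTPN21+VCR were cells with PTPN21 overexpressed from the same kind of vector with a FLAG tag. All were labelled Jurkat, a human T cell acute lymphoblastic leukemia (T-ALL) line, and were harvested after 48 h with VCR (vincristine, which binds tubulin) or with its solvent DMSO. At what dose VCR was given for RNA-seq is not given in the sources used here. Whether the 3 libraries of a group came from separate cultures is not stated, so p-values measure only the spread between these libraries. PTPN21 is made from a strong constitutive viral promoter, so its level in the overexpressing cells is not a physiological one.

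RPL22 binds RNA on the surface of the ribosome and is not needed for protein synthesis in most cells, but it is needed for normal development of αβ T cells. The gene is deleted on a single allele in a share of T-ALL, and its loss in mouse models speeds T cell tumors, with higher LIN28B through NF-kB. RPL22L1 can take the place of RPL22 in the ribosome, and the RPL22 protein is known to bind the RPL22L1 transcript and lower its level. RPL22 also acts on splicing, including that of the MDM4 transcript.

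GENCODE release 29 on GRCh38 places RPL22 (ENSG00000116251) on chromosome 1, minus strand, bases 6185020 to 6209389, and RPL22L1 (ENSG00000163584) on chromosome 3, minus strand, bases 170864875 to 170870483. RPL22 has 7 annotated transcripts of 508 to 2279 bases and RPL22L1 has 6 of 506 to 2190 bases. The deposited table gives a single value per gene, so isoforms were not measured. The table also lists 22 processed pseudogenes of RPL22, of which 7 were at 0 in every library and 3 had a mean of at least 1 FPKM. FPKM are fragments per kilobase of transcript, scaled to the mapped fragments of the library. Of these pseudogenes RPL22P1 (ENSG00000213178, chromosome 3 from 169483671 to 169484080, minus strand, 410 bases) was by far the highest.

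The sequences below show which of these genes can share reads. Each line is the same 120-base window of the coding sequence, from base 232 to base 351 counted from the A of the RPL22 start codon, taken from GENCODE release 29 transcripts and aligned to RPL22. Capitals mark bases that differ from RPL22.
RPL22: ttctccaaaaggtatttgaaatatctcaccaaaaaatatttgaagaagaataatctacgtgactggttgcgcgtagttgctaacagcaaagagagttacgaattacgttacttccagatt
RPL22L1: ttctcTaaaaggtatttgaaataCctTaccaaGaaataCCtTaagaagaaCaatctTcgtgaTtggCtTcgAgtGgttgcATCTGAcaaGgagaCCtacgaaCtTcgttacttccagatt
RPL22P1: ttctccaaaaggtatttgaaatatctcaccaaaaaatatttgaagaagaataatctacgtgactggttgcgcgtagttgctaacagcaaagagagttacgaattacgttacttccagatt

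RPL22L1 differed from RPL22 at 25 bases of this window, the most similar ungapped stretch of the 2 coding sequences, and RPL22P1 differed at 0. Over the whole coding sequence of 387 bases, RPL22L1 was identical at 246 of 369 aligned bases (66.7%), and the longest run that both shared was 17 bases. RPL22P1 was identical at 363 of 375 aligned bases (96.8%). None of the 2353 different 31-base runs in the RPL22L1 transcripts occurred in an RPL22 transcript, against 293 of the 380 runs of RPL22P1 (77.1%). At 75 bases, 65.2% of the RPL22P1 runs were shared with RPL22. Reads of RPL22 and RPL22L1 can thus be told apart by sequence at these lengths, while most of the RPL22P1 runs cannot be told from RPL22. The share of RPL22 reads that match RPL22P1 was not computed, and how the authors assigned such reads is not given in the sources used here.

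The libraries were checked against their labels before the members were compared. PTPN21 was 0.0212 to 0.0934 FPKM in the NC+DMSO libraries and 0.1597 to 0.5694 in NC+VCR, against 7.93 to 10.53 in PTPN21+DMSO and 4.34 to 6.53 in PTPN21+VCR, so overexpression was seen in every library labelled with it. The cell type label was not borne out by its markers. Of 13 T cell markers, 2 had a mean of at least 1 FPKM, CD3D (61.8 to 139.7 over the libraries) and TRBC1 (0 to 4.15), and 4, CD247, CD5, CD28 and LCK, were at 0 in all 12 libraries. None of 5 B cell markers reached a mean of 1 FPKM. Of 5 myeloid markers, 3 did, with CD33 at 20.5 to 44.4 FPKM and LYZ at 9.08 to 17.0. A list of 9 erythroid genes was chosen after the values were seen, so that they were expressed is a description and no check of the label. HBG2 was at 559.7 to 2985 FPKM, HBZ at 35.5 to 368 and GATA1 at 13.5 to 106.5. Because of the T cell markers, the libraries are called by their labels below, and no T cell identity is assumed for them.

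The summed FPKM of the erythroid list moved with the groups. It was 1434 to 2273 in NC+DMSO, 3286 to 4570 in PTPN21+DMSO, 973 to 1025 in NC+VCR and 1207 to 1388 in PTPN21+VCR, higher with PTPN21 in both treatments and lower with VCR. Its part in the results below was not tested. In bulk RNA, a different share of cells and a different amount of RNA per cell cannot be told apart.

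The table gives no read totals. The steps in which low FPKM values of single-exon genes fell gave 29600000 to 36700000 counted units in the NC libraries and 41900000 to 49500000 counted units in the PTPN21 libraries, where 1 unit may be 1 or 2 fragments. Depth and construct vary together and cannot be told apart here. At these depths, and for the shortest annotated transcript of each gene, the smallest RPL22 value rested on about 75900 units and the smallest RPL22L1 value on about 1700, a counting error of 0.363% and 2.43%, far below the spread between libraries. On the log2(FPKM + 1) scale, the pooled SD within groups was 0.36 for RPL22 and 0.48 for RPL22L1.

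RPL22 was among the most abundant transcripts of the table, from the 13th to the 1st of all genes by FPKM, and took 0.806% to 3.24% of the summed FPKM of a library. In NC+DMSO it was at 4448, 8055 and 5189 FPKM in replicates 1, 2 and 3. In PTPN21+DMSO it was at 13275, 10701 and 10963 FPKM. In NC+VCR it was at 19095, 14922 and 14442 FPKM, and in replicate 1 it was the highest gene of the library. In PTPN21+VCR it was at 6064, 5589 and 10441 FPKM. The order of the group means was NC+DMSO (5897 ± 1905, SD, n = 3), PTPN21+VCR (7365 ± 2675), PTPN21+DMSO (11650 ± 1417) and NC+VCR (16150 ± 2559). NC+DMSO and PTPN21+VCR overlapped. The next neighbours did not, but only narrowly for PTPN21+VCR and PTPN21+DMSO, where replicate 3 of PTPN21+VCR (10441) came close to the lowest library of PTPN21+DMSO (10701).

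**Figure D1:**
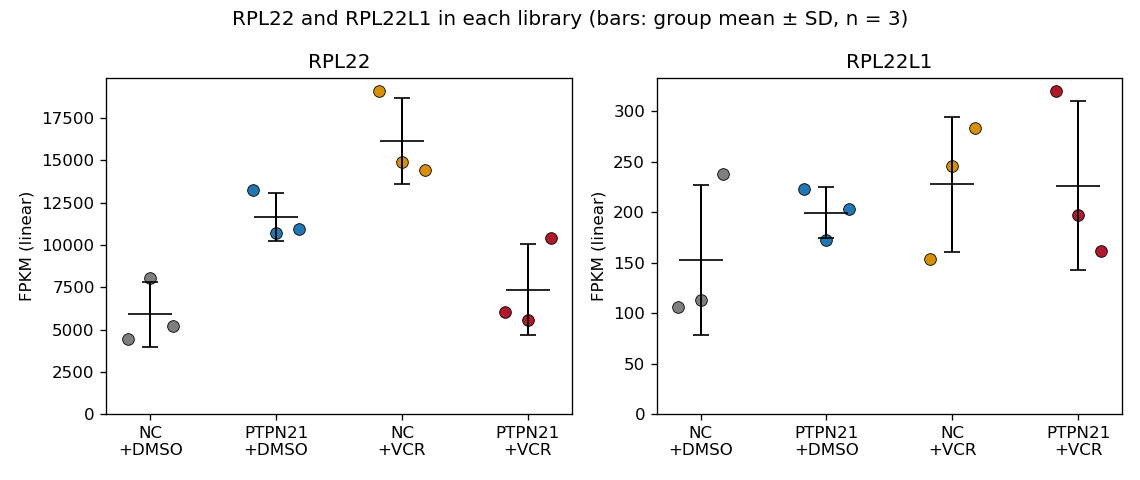
FPKM of RPL22 (left) and RPL22L1 (right) in each library, with points in the order of replicates 1 to 3 and bars for the group mean ± SD (n = 3). RPL22 is highest in NC+VCR and lowest in NC+DMSO, and the 4 groups of RPL22L1 overlap.

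Without drug, RPL22 was 1.98-fold higher in PTPN21+DMSO than in NC+DMSO, a difference of 1.02 on the log2(FPKM + 1) scale. With VCR it was 2.19-fold lower in PTPN21+VCR than in NC+VCR, a difference of -1.18. VCR went with a 2.74-fold higher level in NC cells (1.49) and with a 1.58-fold lower level in PTPN21 cells (-0.71), so the difference between the responses was -2.20. In each of these 4 comparisons the libraries of both groups did not overlap. Of all genes tested, 11.5% were higher in PTPN21+DMSO than in NC+DMSO without overlap, 10.2% lower in PTPN21+VCR than in NC+VCR, 10.2% higher in NC+VCR than in NC+DMSO and 33.3% lower in PTPN21+VCR than in PTPN21+DMSO. PTPN21 above NC in DMSO and below it in VCR, both without overlap, was seen for 65 genes (0.561%), and the opposite for 134 (1.16%). All 4 comparisons without overlap and in the directions of RPL22 were seen for 18 genes (0.155%), RPL22 among them. These comparisons share groups, and the gene was chosen for them, so no test is attached.

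Averaged over both constructs, the estimate of the response to VCR is independent of the differences that chose the gene, and it was tested. RPL22 was 0.39 higher with VCR on the log2(FPKM + 1) scale (standard error 0.18), which did not pass the threshold of 0.05 (limma adjusted p = 0.0869). The exact two-sided permutation test within constructs gave p = 0.385 (0.513 after Benjamini-Hochberg adjustment over the 4 such tests made), where 400 arrangements allow no p below 0.005. The average joins a higher level in NC cells and a lower level in PTPN21 cells. Exchanging labels within constructs keeps these opposite responses in the permutation spread. The permutation p is therefore not independent of the choice of RPL22 and cannot decide on its average response. The call depended on the scaling and on a single library. Under median ratio scaling the difference was 0.68 (limma adjusted p = 0.0168), and without NC+DMSO replicate 2, the highest of its group, it was 0.51 (limma adjusted p = 0.0213). RPL22 did not pass in the other 19 alternatives. The difference was 0.24 under quantile normalization (limma adjusted p = 0.241) and 0.25 without PTPN21+VCR replicate 3 (limma adjusted p = 0.197). Of all genes tested, 47.3% passed in this comparison, 12.2% higher and 35.1% lower, and the median over all genes was -0.27.

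RPL22L1, the paralog, was much lower than RPL22, from the 759th to the 242nd gene by FPKM. It was at 106.0, 113.5 and 238.3 FPKM in NC+DMSO, with replicate 3 above both others. In PTPN21+DMSO it was at 223.1, 172.8 and 202.8 FPKM. In NC+VCR it was at 153.9, 245.7 and 283.9 FPKM, and in PTPN21+VCR at 320.6, 197.4 and 161.4 FPKM. The group means ran from 152.6 ± 74.3 (SD, n = 3) in NC+DMSO through 199.6 ± 25.3 in PTPN21+DMSO and 226.5 ± 83.5 in PTPN21+VCR to 227.8 ± 66.8 in NC+VCR. All neighbours in this order overlapped, and so did the groups in each of the 4 comparisons made for RPL22.

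For RPL22L1 the difference between PTPN21 and NC was 0.48 in DMSO and -0.02 in VCR on the log2(FPKM + 1) scale, and the difference between the responses to VCR was -0.50. The value in VCR has no stable sign, since leaving out single libraries moved it from -0.30 to 0.19. Averaged over constructs, RPL22L1 was 0.38 higher with VCR (standard error 0.23, limma adjusted p = 0.196, exact permutation p = 0.195, adjusted 0.39), nearly the same size as for RPL22 and also short of the threshold. It passed under median ratio scaling (0.67, limma adjusted p = 0.0293) and without NC+DMSO replicate 3 (0.56, limma adjusted p = 0.0344). In the other 19 alternatives it did not pass.

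The paralogs were then set against each other in each library. The FPKM of RPL22L1 was 0.806% to 5.29% of that of RPL22. This ratio was 2.38%, 1.41% and 4.59% in NC+DMSO, 1.68%, 1.61% and 1.85% in PTPN21+DMSO, 0.806%, 1.65% and 1.97% in NC+VCR, and 5.29%, 3.53% and 1.55% in PTPN21+VCR. The lowest ratio was in the library with the most RPL22, NC+VCR replicate 1. The highest was in PTPN21+VCR replicate 1, which had the most RPL22L1 and the fourth lowest RPL22. The log2 ratio differed by -0.01 between VCR and DMSO averaged over constructs (exact two-sided permutation test, p = 0.99). Without single libraries this difference ran from -0.21 to 0.24. The average joins opposite directions. With VCR the mean log2 ratio went from -5.32 to -6.18 in NC cells and from -5.86 to -5.02 in PTPN21 cells, with overlapping groups. These differences contain those that chose RPL22 and were not tested. The permutation spread holds them too, so this p cannot show that the ratio was unchanged.

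Whether libraries of a group with more RPL22 had less RPL22L1 was tested on the deviations from the group means. Pearson's r was -0.42 (exact permutation p = 0.315) and Spearman's rho was -0.41 (exact permutation p = 0.333) over 12 libraries and 1296 re-pairings within groups. These were 2 measures of 1 relation, both at 0.333 after Benjamini-Hochberg adjustment. The 2 libraries farthest out in RPL22 were NC+DMSO replicate 2 and PTPN21+VCR replicate 3, and without them r was 0.04 over 10 libraries (exact permutation p = 0.903). An inverse relation of the paralogs was thus not detected at the level of RNA. Leaving out these 2 libraries also takes out the largest deviations of RPL22, so it cannot show what the negative r rests on. Leaving out 1 library at a time, r stayed between -0.70 and -0.23. With 3 libraries per group, the test cannot show that there is no inverse relation.

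RPL22P1 followed RPL22 in 3 of the 4 comparisons. It was at 265.9, 271.0 and 180.2 FPKM in NC+DMSO, 282.7, 370.8 and 380.6 in PTPN21+DMSO, 475.9, 546.6 and 538.2 in NC+VCR, and 406.9, 362.0 and 427.0 in PTPN21+VCR. It was 0.54 higher with PTPN21 in DMSO and 0.38 lower in VCR on the log2(FPKM + 1) scale, both without overlap and both smaller than for RPL22. In PTPN21 cells its VCR and DMSO libraries overlapped (0.22), where RPL22 was lower by 0.71 without overlap. RPL22P1 values may include reads of RPL22, and these differences were not tested. Averaged over constructs, RPL22P1 rose with VCR by 0.68 (standard error 0.12, limma adjusted p = 0.000515, exact permutation p = 0.015, adjusted 0.06). Most of this came from NC cells, where VCR libraries were higher by 1.14 without overlap, against 0.22 with overlap in PTPN21 cells. The average stayed between 0.58 and 0.97 and passed in limma in all 21 alternatives run.

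Relative to RPL22, the pseudogene was at 2.13% to 6.71% of its FPKM, and PTPN21+VCR had the highest mean (5.76 ± 1.45%, SD, n = 3). RPL22P2 and RPL22P5, the other pseudogenes with a mean of at least 1 FPKM, did not exceed 3.21 and 2.61 FPKM in any library. With all RPL22 pseudogene FPKM added to RPL22, the log2 paralog ratio differed by -0.02 between VCR and DMSO averaged over constructs. The exact permutation p was 0.95, with the limit given above for this ratio.

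**Figure D2:**
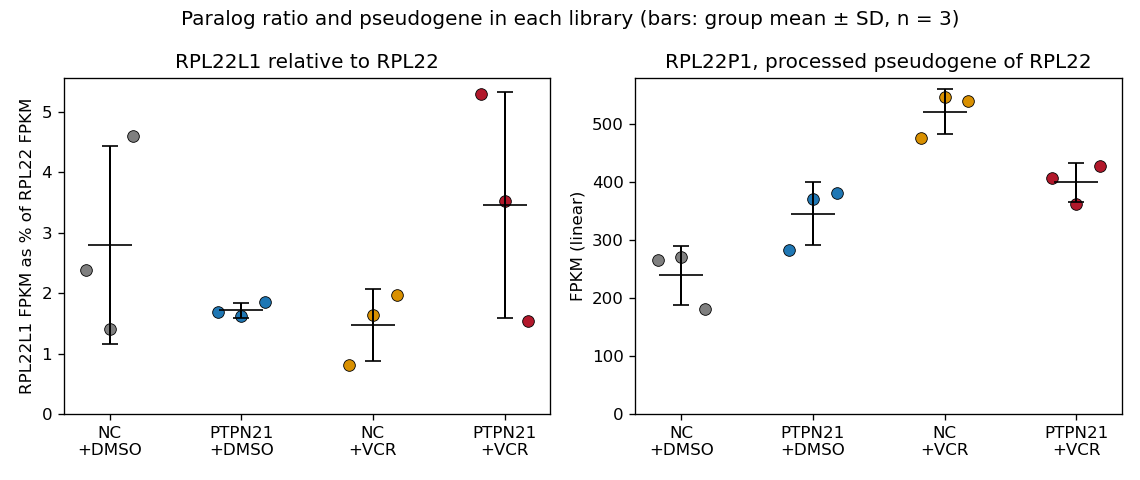
RPL22L1 FPKM as a percentage of RPL22 FPKM (left) and FPKM of the pseudogene RPL22P1 (right) in each library, with bars for the group mean ± SD (n = 3). The ratio spreads from 0.806% to 5.29% with all groups overlapping, and RPL22P1 is highest in the 3 NC+VCR libraries.

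The genes around the members were low. CHD5, SLC7A14 and SLC2A2 had mean FPKM near 0, and AC026316.4 was listed at 0 in all libraries. AL031847.1, a gene on the same strand that overlaps RPL22 from chromosome 1 base 6159430 to 6197757, had a mean of 0.268 FPKM and reached at most 1.56. RNF207 reached 4.71 FPKM, ICMT 5.12 and EIF5A2 2.96. No neighbour came near the level of RPL22 or RPL22L1.

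RPL22 was next compared with 78 other cytosolic ribosomal protein genes, which encode the rest of the ribosome. RPL22 made up 2.57% to 9.21% of the FPKM of all these genes together, least in PTPN21+VCR (3.16 ± 0.94%, SD, n = 3) and most in NC+VCR (7.67 ± 1.33%). The summed FPKM of the other genes was 102638 to 144177 in NC+DMSO, 160597 to 191418 in PTPN21+DMSO, 188324 to 199411 in NC+VCR and 211600 to 235522 in PTPN21+VCR. The 3 PTPN21+VCR libraries thus had the highest sums of the other ribosomal protein genes and, in replicates 1 and 2, the lowest shares of RPL22.

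In DMSO, 24 of the 78 genes rose with PTPN21 and 0 fell, against 6.34% of all genes in either direction (2.65% higher and 3.69% lower), and their median was 0.38 with -0.14 for all genes. RPL35 (1.13, limma adjusted p = 0.00708) and RPS20 (1.05, limma adjusted p = 0.00534), components of the large and the small subunit, rose and passed in all 21 alternatives. RPL17 rose most (1.75, limma adjusted p = 0.03), from 418.7 to 788 FPKM in NC+DMSO to 1107 to 3386 in PTPN21+DMSO, but did not pass without PTPN21+DMSO replicate 1 (1.33, limma adjusted p = 0.124), nor without NC+DMSO replicate 1 or 3 or PTPN21+DMSO replicate 2. In all, RPL17 did not pass in 6 of 21 alternatives. At 1.02, RPL22 lay above 74 of the 78 genes. The count of 24 became 5 without PTPN21+DMSO replicate 1 and 34 without NC+DMSO replicate 2.

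In VCR, 9 of the 78 genes rose with PTPN21 and 0 fell, against 1.82% of all genes (1% higher and 0.82% lower), with a median of 0.28 and 0.03 for all genes. RPL34 rose most (1.11, limma adjusted p = 0.00707), from 700.8 to 855.5 FPKM in NC+VCR to 1611 to 1702 in PTPN21+VCR. RPS16, of the small subunit, rose by 0.75 (limma adjusted p = 0.0139), but did not pass without NC+VCR replicate 1 or PTPN21+VCR replicate 1 or 3 (limma adjusted p of 0.0604, 0.0513 and 0.0678). In all, RPS16 did not pass in 5 of 21 alternatives. At -1.18, RPL22 lay below all 78 genes. The count of 9 became 1 without NC+VCR replicate 1 and 19 without NC+DMSO replicate 3.

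For the interaction of PTPN21 and VCR, limma called 0 of the 78 genes, with 19 at an unadjusted p under 0.05, against 0.129% of all genes called. Their values ran from -1.81 to 0.96 with a median of -0.10, and 0.17 for all genes. RPL22, at -2.20, lay below all 78, and RPL22L1, at -0.50, lay below 65. RPL17 (-1.81) and RPL26 (-1.48) came nearest to it. RPL26, singled out after the values were seen, was the nearest to RPL22 among these genes for PTPN21 in VCR. It was at 2032, 2271 and 3251 FPKM in NC+DMSO, 3367, 2756 and 4536 in PTPN21+DMSO, 8250, 5090 and 8539 in NC+VCR and 3509, 3465 and 3820 in PTPN21+VCR, with differences between PTPN21 and NC of 0.50 in DMSO and -0.98 in VCR.

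**Figure D3:**
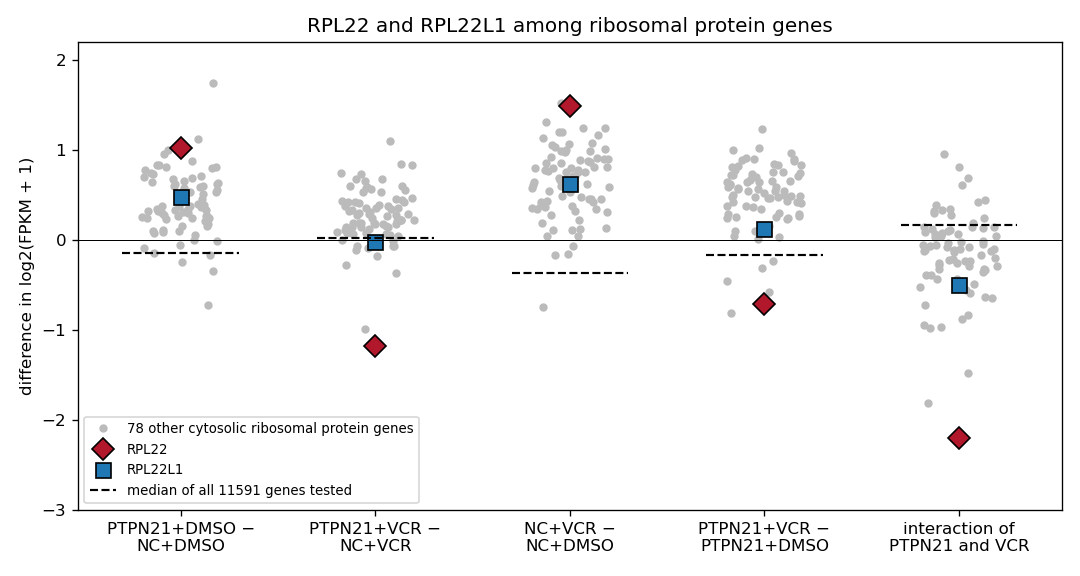
Differences in log2(FPKM + 1) for RPL22 (diamond), RPL22L1 (square) and 78 other cytosolic ribosomal protein genes (grey points) in 4 comparisons and the interaction, with the median of all 11591 genes as a dashed line. RPL22 lies near the top of the ribosomal genes for PTPN21 in DMSO (1.02) and for VCR in NC cells (1.49), and below all of them for PTPN21 in VCR (-1.18) and for the interaction (-2.20).

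With VCR averaged over constructs, 63 of the 78 genes rose, 1 fell and 14 did not pass, against 12.2% of all genes higher and 35.1% lower, with a median of 0.62. RPL28 (1.06), RPL39 (1.04) and RPS13 (0.96) rose most, with adjusted p of 0.000361, 0.00647 and 8.3e-06 in limma, and RPS26 fell (-0.78, limma adjusted p = 0.000237). RPL5, RPL10 and RPL11 are ribosomal protein genes named with RPL22 in leukemia or in the response to ribosome stress, RPL5 and RPL11 as binders of MDM2. All 3 rose with VCR, by 0.42, 0.66 and 0.67 (limma adjusted p of 0.000677, 9.72e-05 and 0.000458), and passed in all alternatives. RPL22 (0.39) and RPL22L1 (0.38) each lay below 61 of the 78 genes.

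Another 7 ribosomal protein paralogs were set beside RPL22L1, and 5 of them were tested. RPL3L had a mean of 0.271 FPKM and RPL10L was listed at 0 in all libraries. With PTPN21 in DMSO, RPL26L1 rose by 0.84 (limma adjusted p = 0.0123), from 89.8 to 123.3 FPKM to 178.5 to 203.1. RPL36AL rose by 0.54 (limma adjusted p = 0.0349), from 528.7 to 703.6 FPKM to 824.2 to 948. Neither passed without PTPN21+DMSO replicate 1 (limma adjusted p = 0.0667 and 0.132), and RPL36AL also did not pass without NC+DMSO replicate 1 or 3, PTPN21+DMSO replicate 3 or PTPN21+VCR replicate 1. In all, RPL36AL did not pass in 9 of 21 alternatives, which include changes of setting. In VCR 0 of the 5 passed in limma, with 2 at an unadjusted p under 0.05, against 1.82% of all genes passed. For the interaction 0 passed in limma, with 1 at an unadjusted p under 0.05, against 0.129% of all genes passed.

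With VCR averaged over constructs, 3 of the 5 paralogs fell as deposited, against 35.1% of all genes, RPL7L1 by 0.45, RPL26L1 by 0.30 and RPL36AL by 0.29 (limma adjusted p of 0.0151, 0.035 and 0.0212 in that order). None of these passed under median ratio scaling, which moves the median of all genes from -0.27 to -0.03. RPL36AL was then at 0.0026 and so had no stable direction. RPL26L1 also did not pass without 8 of the 12 libraries, left out in turn (limma adjusted p up to 0.0833), and RPL36AL did not without PTPN21+DMSO replicate 3 (0.0511) or PTPN21+VCR replicate 2 (0.0545). RPL22L1 (0.38) and RPL39L (0.27, limma adjusted p = 0.0554) had the positive values with the lowest p of the paralogs.

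A list of genes around MDM4 and MDM2, which RPL22 and other ribosomal proteins act on, had 6 of 7 members tested. CDKN1A, which encodes an inhibitor that halts the cell cycle, was at 0.222 to 1.06 FPKM with DMSO and at 2.19 to 6.41 with VCR, and rose by 1.60 on the log2(FPKM + 1) scale (limma adjusted p = 4.8e-05). It passed in all 20 alternatives. MDM4 was at 3.15 to 5.97 FPKM, with differences of 0.02 for VCR averaged over constructs and -0.16 for PTPN21 in VCR. These levels say nothing of MDM4 splicing. MDM2 was 1.14 higher in PTPN21+VCR than in NC+VCR (limma adjusted p = 0.0474), but did not pass in 15 of 20 alternatives. With PTPN21 in DMSO 0 of the 6 passed in limma, with 0 at an unadjusted p under 0.05, against 6.34% of all genes passed.

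Among 9 LIN28, NF-kB and SMAD genes that have been linked to RPL22, 6 were tested, and LIN28A, HMGA2 and SMAD1 had means under 1 FPKM. LIN28B, an RNA-binding protein that blocks let-7 microRNAs, was at 10.4, 5.66 and 13.9 FPKM in NC+DMSO and lower in all other libraries, at 2.29, 3.69 and 3.60 in PTPN21+DMSO, 2.74, 2.84 and 2.94 in NC+VCR and between 2.57 and 3.40 in PTPN21+VCR. NC+DMSO had the least RPL22 and the most LIN28B, and PTPN21+VCR, whose RPL22 overlapped with that of NC+DMSO, had LIN28B as low as the rest. A relation of LIN28B to RPL22 was not tested. LIN28B fell with VCR averaged over constructs by 0.75 (limma adjusted p = 0.00749), which missed the threshold only under quantile normalization (-0.46, limma adjusted p = 0.0517). It was lower with PTPN21 in DMSO by 1.33 (limma adjusted p = 0.023), but did not pass without PTPN21+DMSO replicate 1 or 3 or NC+DMSO replicate 1 or 3 (limma adjusted p = 0.0559 to 0.105). In all, this difference did not pass in 5 of 20 alternatives. The interaction of LIN28B was 1.38 (limma adjusted p = 0.188). NFKB1, RELA, CHUK, IKBKB and SMAD2 passed in none of these comparisons in limma. Of all genes tested, 47.3% passed for VCR averaged over constructs, 6.34% for PTPN21 in DMSO and 0.129% for the interaction. Of the 6 genes tested, LIN28B included, 3, 4 and 2 had an unadjusted p under 0.05 in limma, in that order.

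The genes most like RPL22 over the 12 libraries were sought among 4591 genes with a mean of at least 10 FPKM, by Pearson's r of log2(FPKM + 1). The highest were DNAJC1 (0.93) and HSP90B1 (0.88), chaperones of the endoplasmic reticulum, ZFAND2A (0.87), SEC62 (0.87) and POLR3GL (0.86). HSP90B1 was at 868 to 1020 FPKM in NC+DMSO, 1279 to 1323 in PTPN21+DMSO, 1360 to 1409 in NC+VCR and 1123 to 1246 in PTPN21+VCR, in the order of RPL22 but over a narrower range. The lowest were NCBP2 (-0.92), ERGIC2 (-0.90) and POP4 (-0.88). ERGIC2 was at 5.32 to 6.69 FPKM in NC+VCR and at 13.2 to 15.8 in PTPN21+VCR. The points share their libraries and depth, and fall into 4 groups of 3 libraries.

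For RPL22L1 the highest were KPNA2 (0.87), which encodes a nuclear import adaptor, TXNL1 (0.75), VTRNA1-3 (0.74), NADK (0.70) and LINC01234 (0.70). Among the lowest were SBDSP1 (-0.83) and RPUSD4 (-0.81). KPNA2 was lowest in NC+DMSO replicate 1 (61.8 FPKM), where RPL22L1 was also lowest, and was at 70.1 and 94.5 in replicates 2 and 3.

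**Figure D4:**
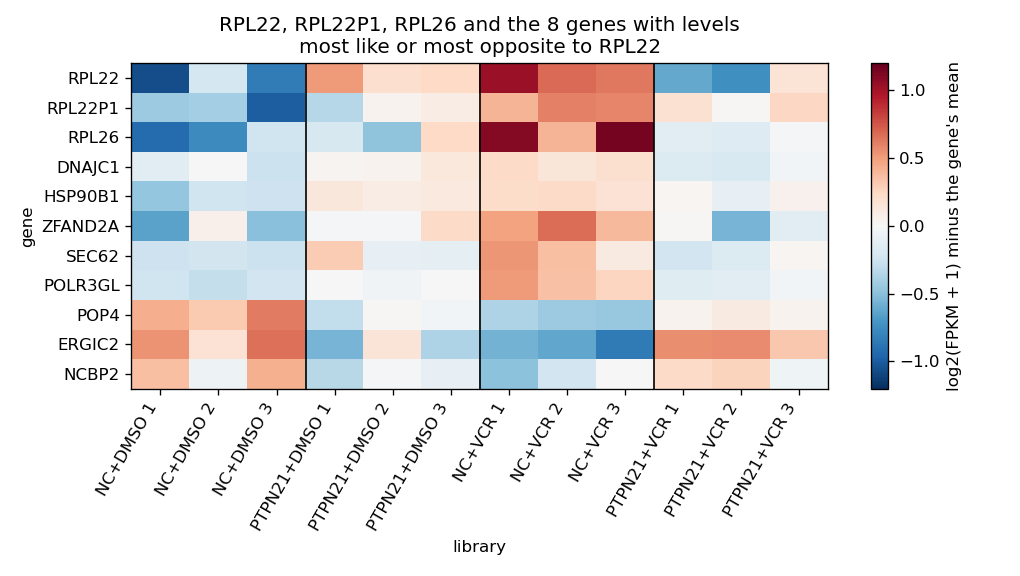
Level of RPL22, RPL22P1, RPL26 and the genes most like or most opposite to RPL22 in each library, as log2(FPKM + 1) minus the mean of the gene over the 12 libraries. Red marks libraries above that mean, and RPL22 and the 5 genes most like it are red in all 3 NC+VCR libraries.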

How the data were processed

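RNA-seq was done on 12 libraries, 3 in each of 4 groups, grouped by the labels. The authors deposited a table of FPKM for 60671 genes, made by an external company. The submitters' processing notes name fastp, Bowtie2 and mm10, a mouse build, with no version or role, while the identifiers are human Ensembl ones. The aligner's role, the counter, the annotation and any filter are not given in the sources used here. Each value column matched the title of 1 sample.

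The deposited FPKM were put on the scale log2(FPKM + 1). Genes averaging 1 FPKM or more over the libraries (11591) were fitted with limma 3.58.1 (R 4.3.3, intensity trend, 1 model of the 4 groups, no block), with Benjamini-Hochberg adjustment over all of them and a threshold of 0.05. A gene passed, rose or fell if its adjusted p was under 0.05. This scale understates the change of low genes. The fit was tested on simulated data. Single values were compared by exact permutation within constructs (scipy 1.17.1). Positions and sequences came from GENCODE release 29, aligned with Biopython 1.88. Other steps and plots used Python 3.11.15, pandas 2.3.3, numpy 2.4.6 and matplotlib 3.10.9.

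The members, gene lists and tests were chosen with earlier results of these data known. The genes named are the members, their pseudogenes with a mean of at least 1 FPKM, PTPN21, RPL5, RPL10, RPL11, the genes of the paralog, MDM4, and LIN28, NF-kB and SMAD lists, the nearest 2 protein-coding genes on each side, the 3 largest rises and falls of ribosomal protein genes past the threshold, and the 5 highest and 3 lowest correlations per member. A few genes that this rule names are not reported here. RPL26 and the erythroid list were added after the values were seen. The alternatives tried were leaving the genes unfiltered or asking for a mean of 5 FPKM, a pseudocount of 0.1, scaling by TPM, median ratio or quantiles, dropping the trend, a robust fit, a fit of the 2 groups alone, a block for replicate number, pseudogene FPKM added to RPL22, and leaving out each library.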

Additional observations from a re-analysis of the deposited data

Results flagged for a closer look

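The response of RPL22 to VCR ran in opposite directions in the 2 constructs. Every NC+VCR library was above every NC+DMSO library (1.49 on the log2(FPKM + 1) scale), and every PTPN21+VCR library was below every PTPN21+DMSO library (-0.71), so that the responses differed by -2.20. The difference was not tested, because RPL22 was chosen for it. The share of all genes tested that had this pattern, in these directions and without overlap in all 4 comparisons, was 0.155%. In PTPN21 cells the gap between the groups was that between 10441 and 10701 FPKM, so it rests on PTPN21+VCR replicate 3 and PTPN21+DMSO replicate 2.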

How the results depend on the processing

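The differences of RPL22 between PTPN21 and NC kept their direction in all 21 alternatives. Leaving out 1 library they were 0.84 to 1.27 in DMSO and -1.46 to -1.01 in VCR. Groups without overlap cannot change direction when 1 library is left out. Alternatives that change only the filter or the fit leave these values as they are. The kept direction is thus no support for differences that chose the gene. The interaction of RPL22 was -2.48 to -2.02 leaving out 1 library and -1.82 under quantile normalization. RPL22L1 was 0.27 to 0.85 in DMSO, -0.30 to 0.19 in VCR and -0.87 to -0.29 for the interaction, and its value in VCR changed sign without NC+VCR replicate 2 (0.05) or 3 (0.16) or PTPN21+VCR replicate 2 (0.04) or 3 (0.19). For VCR averaged over constructs, RPL22 was 0.25 to 0.51 and RPL22L1 0.24 to 0.56 leaving out 1 library, and 0.68 and 0.67 under median ratio scaling (limma adjusted p = 0.0168 and 0.0293). Under quantile normalization RPL22 was 0.24 and RPL22L1 0.47 (limma adjusted p = 0.241 and 0.142). The log2 ratio of the paralogs changed sign under quantile normalization (0.23) and without NC+DMSO replicate 3 (0.21), NC+VCR replicate 1 (0.18), PTPN21+DMSO replicate 3 (0.02) or PTPN21+VCR replicate 3 (0.24), with a range of -0.21 to 0.24. The correlation of the paralogs within groups ran from -0.70 to -0.23.

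The number of genes called for PTPN21 in DMSO (735) was 177 with no filter, 40 with only the 2 groups compared and 321 without the trend, and 67 to 1345 leaving out 1 library, the ends being those that lack PTPN21+DMSO replicate 1 and NC+DMSO replicate 2. For PTPN21 in VCR (211) it was 344 with a mean FPKM of at least 5, 118 with no filter, 117 with the 2 groups and 72 without the trend, and 43 to 354, at the ends lacking PTPN21+VCR replicate 2 and NC+DMSO replicate 3. For the interaction (15) it was 8 with that mean FPKM, 8 with no filter and 9 without the trend, and 7 to 30, at the ends lacking replicate 1 and replicate 2 of NC+DMSO. For VCR averaged over constructs (5479) it was 3649 with that mean FPKM, where fewer genes were tested, and 4860 to 5399. Ribosomal protein genes called were 7 with no filter, 13 without the trend and 5 to 34 leaving out 1 library for PTPN21 in DMSO (24). For PTPN21 in VCR (9) they were 16 with a mean FPKM of at least 5, 2 under median ratio scaling, 4 with no filter, 1 without the trend and 1 to 19. For the interaction (0) they were 1 under quantile normalization and 0 to 1, and for VCR (64, of which 63 rose) 61 to 67. Otherwise the cause of these moves was not tested.

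Scaling changed the share of called genes that were higher, for VCR from 25.8% as deposited to 50.4% with median ratio scaling and 49.2% with quantile normalization, and for PTPN21 in DMSO from 41.8% to 73.6%, 56.2% and, under TPM scaling, 21.0%. For the interaction the share was 20.0% as deposited and 36.4% under TPM scaling.

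Replicate numbers showed no sign of pairing the libraries, since 0 of 18 pairs of same-numbered libraries had deviations correlated above 0.1 (-0.145 to 0.0583). With 3 libraries per group, this check cannot show that the libraries were unpaired. With the replicate block, 242 genes passed for PTPN21 in DMSO, 74 for PTPN21 in VCR and 8 for the interaction. The same alternatives were applied, as a choice made after seeing the data, to calls of the other genes named. Of 599 such values, 514 stayed on their side of the threshold in the same direction, 84 no longer passed and 1 changed sign (RPL36AL for VCR under median ratio scaling, 0.0026).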
